A study of Mus musculus with 40 samples.

Results

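Promoter-near fragments were defined as different fragments of the screen whose centre lay 1500 bp or less from a curated RefSeq transcription start site of the mouse genome mm10. They numbered 6484 of 354627 different fragments in all 40 libraries, or 1.83%, and lay nearest to start sites of 335 genes. The distal fragments, over 1500 bp from every such site, numbered 348120, and another 23 lay on scaffolds that were not annotated.

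The libraries came from a reporter screen in HM-1 cells, a mouse ES cell line of 129/ola origin whose Hprt locus does not function until the reporter repairs it. Open-chromatin fragments cut by Tn5 transposase in 5 stages of blood cell development were cloned in front of the HSP68 minimal promoter and the fluorescent reporter Venus-YFP, and the plasmids were mixed before transfection. All groups therefore carried fragments of mixed plasmids at Hprt, in 1 cell line. Which fragments the cells of each replicate integrated and kept is not given. The stages were undifferentiated ES cells, FLK1+ hemangioblast (HB), first hemogenic endothelium (HE1, KIT+ TIE2+ CD41-), second hemogenic endothelium (HE2, KIT+ TIE2+ CD41+) and hematopoietic progenitors (HP, KIT+ TIE2- CD41+), and each was sorted by YFP into the gates Negative, Low, Medium and High in replicates 1 and 2. A sort below is 1 stage in 1 replicate, which makes 10 sorts, and a fragment is called positive in a sort where its Low, Medium or High library holds it. The lists give coordinates without read counts, so a fragment counts once per library, and nothing in the labels says that the replicates were separate cultures.

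A promoter is the stretch of DNA around a start site where RNA polymerase II and the general transcription factors assemble. Many mammalian promoters lie in CpG islands, which are rich in G, C and the dinucleotide CpG and often hold GC boxes, the sites of SP1-type factors, while a smaller class carries a TATA box. Enhancers act at a distance and are poorer in CpG. The reporter does not tell whether a fragment raised transcription from the minimal promoter or began transcription itself.

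The 8 fragments below show the range of sequences near start sites. Each is a fragment of at most 300 bp that was found in the most sorts for its gene, holds no untranslated sequence of a coding transcript. They are written 5′ to 3′ on the strand of the gene, from the GRCm38 (mm10) reference of RefSeq, which is C57BL/6J and not 129 sequence, and capitals mark CpG.
Gm2885, chr17:6827863-6827995, minus strand: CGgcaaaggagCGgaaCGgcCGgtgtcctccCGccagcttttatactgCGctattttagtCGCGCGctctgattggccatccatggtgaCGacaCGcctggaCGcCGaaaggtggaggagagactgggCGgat
Gm8273, chr4:8647504-8647611, minus strand: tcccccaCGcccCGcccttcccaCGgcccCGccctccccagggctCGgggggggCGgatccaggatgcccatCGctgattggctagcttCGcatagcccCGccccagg
Psmc1, chr12:100110444-100110531, plus strand: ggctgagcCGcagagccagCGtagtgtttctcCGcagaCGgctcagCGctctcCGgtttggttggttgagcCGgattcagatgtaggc
Gatad2b, chr3:90292925-90293021, plus strand: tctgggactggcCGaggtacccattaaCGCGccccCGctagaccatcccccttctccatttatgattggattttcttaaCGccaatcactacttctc
Spi1, chr2:91083086-91083370, plus strand: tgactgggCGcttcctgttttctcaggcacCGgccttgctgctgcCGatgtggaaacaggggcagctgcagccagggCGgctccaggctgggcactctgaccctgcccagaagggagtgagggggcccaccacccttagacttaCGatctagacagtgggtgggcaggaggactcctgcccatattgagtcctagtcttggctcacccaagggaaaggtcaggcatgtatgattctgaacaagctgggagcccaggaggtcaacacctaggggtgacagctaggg
Tmem144, chr3:79852927-79853166, minus strand: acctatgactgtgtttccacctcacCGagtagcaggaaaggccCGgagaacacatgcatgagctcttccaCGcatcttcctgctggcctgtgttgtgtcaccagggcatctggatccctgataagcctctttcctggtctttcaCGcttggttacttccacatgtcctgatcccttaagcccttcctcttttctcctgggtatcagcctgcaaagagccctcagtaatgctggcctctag
Gm13842, chr5:116029290-116029395, minus strand: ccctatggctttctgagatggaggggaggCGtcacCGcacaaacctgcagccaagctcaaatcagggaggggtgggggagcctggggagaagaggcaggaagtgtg
Gm34643, chr14:103012688-103012795, plus strand: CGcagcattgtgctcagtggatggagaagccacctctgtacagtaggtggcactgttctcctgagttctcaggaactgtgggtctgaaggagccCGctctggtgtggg

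The fragments near Gm2885, Gm8273 and Psmc1 held 10.5, 8.33 and 7.95 CpG per 100 bp, and the Gatad2b fragment held 5.15. The Spi1, Tmem144, Gm13842 and Gm34643 fragments held 1.75, 1.67, 1.89 and 1.85, below the distal mean given further on. The GC box (GGGCGG, read on both strands) occurred 4 times in the Gm8273 fragment and once each in those of Gm2885 and Spi1. The letters TATAAA, also read on both strands, occurred only in the Gm2885 fragment among these 8.

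Fragments were concentrated at the start site itself. The median distance of a promoter-near fragment from its nearest start site was 168 bp, 34.2% of the fragments lay within 100 bp, 63.6% within 250 bp and 78.3% within 500 bp. Only 10.1% lay over 1000 bp away. The start base was inside 2130 fragments, or 32.9%, and 53.6% of the fragments had their centre upstream of it. At the limit the counts changed sharply: 88 fragments lay over 1400 and up to 1500 bp from a start site and 2480 lay over 1500 and up to 1600 bp away. The 88 just inside had a mean GC content of 54.0% and 2.58 CpG per 100 bp, and the 2480 just outside had 58.6% and 4.35. The lists thus held a thin layer of fragments inside the limit that the study's promoter and distal split used, with a peak at the start sites.

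**Figure D1:**
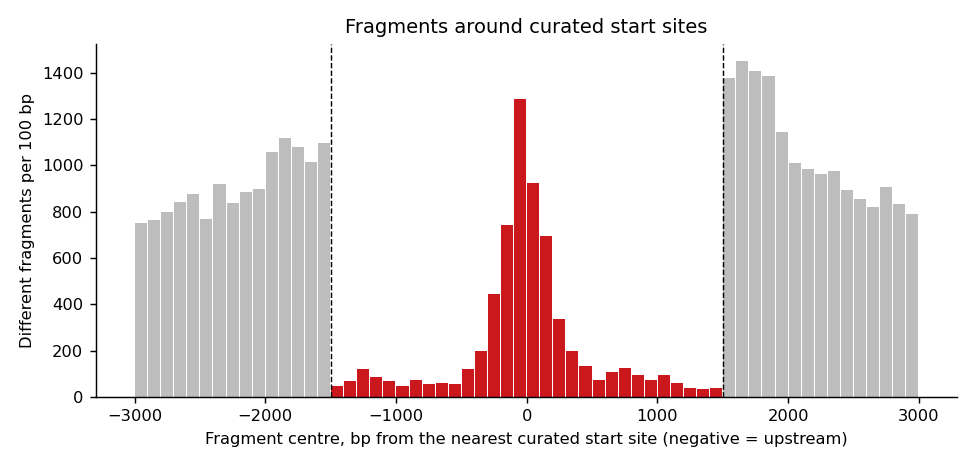
Different fragments per 100 bp (vertical axis) by the distance of their centre from the nearest curated start site in bp (horizontal axis, negative upstream), in all 40 libraries. Red bars are the 6484 promoter-near fragments, with 1288 in the 100 bp just upstream of the start base, and grey bars beyond the dashed lines at 1500 bp are distal fragments, with 1096 and 1376 in the first 100 bp on the upstream and downstream side.

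The start sites involved were mostly not the single start of a protein-coding gene. Promoter-near fragments had 353 start sites as their nearest, of which 44.2% belonged to protein-coding genes and 51.0% to long non-coding RNAs (lncRNAs). Over all 31647 curated start sites the shares were 82.9% and 11.2%. Of the 156 protein-coding start sites with fragments, 89 (57.1%) had another curated start site of the same gene over 1500 bp away, against 18.6% of all protein-coding start sites. A transcript start of GENCODE vM21, an independent annotation, lay within 100 bp of 60.3% of the start sites with fragments and of 90.1% of all curated ones. RefSeq Select, the tag for 1 representative transcript a gene, marked 61.5% of the protein-coding start sites with fragments and 79.9% of all. These shares are descriptions and were not tested.

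By fragments, 3244 lay nearest to protein-coding start sites of 141 genes and 2779 to lncRNA start sites of 177 genes. The other 461 lay near small non-coding RNA genes and transcribed pseudogenes. Fragments near protein-coding starts had a median distance of 140 bp and a mean GC content of 63.8%, those near lncRNA starts 199 bp and 60.7%, and the remainder 226 bp and 50.6%. Found positive in at least 1 library were 84.9% of the fragments near protein-coding starts, 85.9% of those near lncRNA starts and 86.6% of the remainder. By their centre, 35.9% of promoter-near fragments lay in introns, 35.7% between genes, 25.2% in non-coding exon parts and 3.16% in coding exons. Among distal fragments 2.48% lay in non-coding exon parts, a difference that the rule of 1500 bp itself bears on.

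Promoter-near fragments were richer in G and C than distal fragments of the same sort. Mean GC content was 60.0% ± 2.19 (SD, n = 10 sorts) near start sites and 52.9% ± 3.18 in distal fragments. In the replicate 1 sorts the promoter-near means ran from 61.4 to 62.4% and the distal means from 54.9 to 56.8%. In the replicate 2 sorts they ran from 57.4 to 58.7% and from 48.9 to 50.5%. The sort means of the 2 kinds of fragment thus did not overlap within a replicate. The difference was 7.15 percentage points ± 1.12 (SD, n = 10), higher in 10 of 10 sorts (exact sign-flip permutation test, two-sided, adjusted p = 0.00195, the smallest that 10 sorts allow). CpG per 100 bp rose from 2.28 ± 0.741 in distal to 5.64 ± 0.882 in promoter-near fragments, higher in 10 of 10 sorts (exact permutation test, adjusted p = 0.00195, n = 10). Median length was 220.4 bp near start sites and 198.2 bp in distal fragments, longer in 10 of 10 sorts by 22.2 bp ± 12.9 (exact permutation test, adjusted p = 0.00195, n = 10). Within 1 replicate each of these differences had the same sign in 5 of 5 sorts, where the smallest p the exact test allows is 0.0625. With all 10 sorts of the same sign, each p is at its floor and reflects that agreement in sign. Sorts share fragments while the test takes them as independent, so these p-values may be too small.

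**Figure D2:**
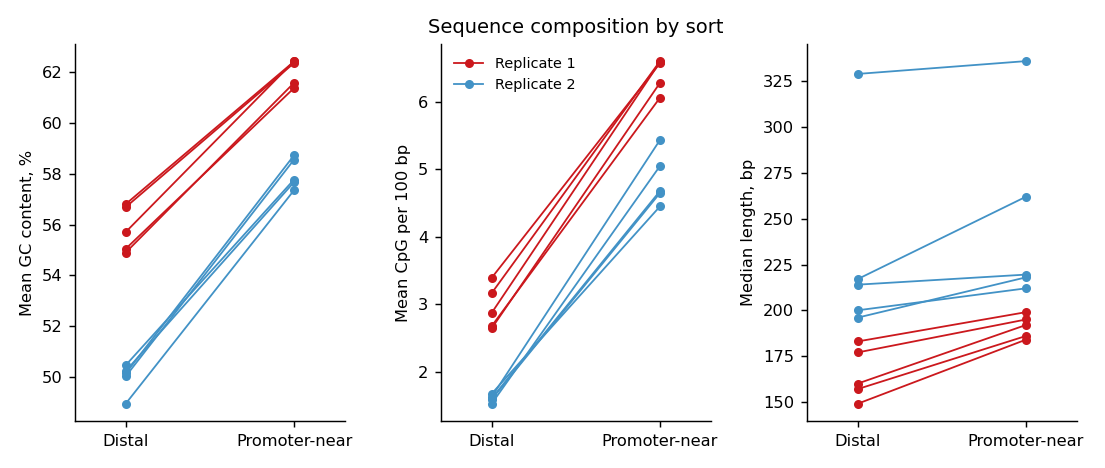
Mean GC content (%), mean CpG per 100 bp and median length (bp) of distal and promoter-near fragments. Each line joins both values of 1 of the 10 sorts, red for replicate 1 and blue for replicate 2, and all 30 lines rise from distal to promoter-near.

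Motif content moved in the same samples. Over the central 150 bp of fragments at least that long, the GC box GGGCGG was present in 32.5% ± 7.57 (SD, n = 10 sorts) of promoter-near and 10.5% ± 5.44 of distal fragments, higher in 10 of 10 sorts (exact permutation test, adjusted p = 0.0312 over 16 motifs). It was present in 35.7% of the 32851 RefSeq promoter windows of 300 bp. TATAAA, the core of the TATA box, was present in 2.03% ± 1.14 of promoter-near and 4.65% ± 2.08 of distal fragments, lower in 9 of 10 sorts (exact permutation test, adjusted p = 0.0312, n = 10), and in 13.6% of the promoter windows, which are longer. The TATAAA difference was -0.97 percentage points in replicate 1 and -4.27 in replicate 2. These were the 2 motifs of 16 that passed the threshold. TGTGGT, the core of the RUNX site of blood cell enhancers, stood at 6.89% near start sites and 11.1% in distal fragments, lower in 9 of 10 sorts, with an adjusted p of 0.0521 in the exact permutation test. CCGGAAG, an ETS site common in promoters, stood at 3.29% and 1.69% (adjusted p = 0.0625 in the exact permutation test). Its difference was 0.201 percentage points in replicate 1 and 2.99 in replicate 2. TGACGTCA, the CRE, stood at 2.03% and 0.418% (adjusted p = 0.0875 in the exact permutation test), with a difference of 3.08 in replicate 1 and 0.153 in replicate 2. RUNX, ETS and CRE stood in 16.8%, 8.86% and 1.79% of the promoter windows. Without the ES, HE1 or HE2 sort of replicate 1, or the HE1 or HP sort of replicate 2, no motif passed, and 9 sorts allow no p under 0.00391 before adjustment.

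A promoter-near fragment was found again slightly more often than a distal one. In a sort, 35.1% ± 17.8 (SD, n = 10 sorts) of the promoter-near fragments were also found in another sort, against 30.7% ± 17.5 of the distal ones, higher in 10 of 10 sorts by 4.44 percentage points ± 3.75 (exact permutation test, adjusted p = 0.00195). Most were nevertheless seen once: 5171 of the 6484 (79.8%) were in a single library, 988 in 2 libraries and 325 in 3 or more. The share in a single library was 81.0% among distal fragments. Both replicates held 91 promoter-near fragments, or 1.40% of them, against 0.948% of distal fragments. Of the promoter-near fragments 6037 were found in replicate 1 and 538 in replicate 2.

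The fragments found in most sorts lay near Psmc1 and Gm8273, with 9 sorts each, followed by 5 that tied at 7 sorts, near Rnu2-10, Gm34643, Gm30889, 4930555A03Rik and Msi1. The Psmc1 fragment, at the start of a gene for an ATPase subunit of the proteasome, was 395 bp long with its centre 22 bp downstream of the start base (chr12:100110027-100110421). It was in 12 libraries of 9 sorts, positive in 6 sorts and in the Negative gate of 5. The Gm8273 fragment (chr4:8647115-8647521) was in 15 libraries of 9 sorts, positive in 7 and negative in 4. The fragment near Rnu2-10 (chr11:101658391-101658740), a gene for U2 small nuclear RNA of the spliceosome, was in 11 libraries of 7 sorts, positive in 4 and negative in 4. The Gm34643 fragment printed above was in 13 libraries of 7 sorts, positive in 7 and negative in 2. It was thus in the positive gates of every sort that held it, and in both ES and HE1 of replicate 2 it was in the Negative library as well. The Gm30889 fragment was in 11 libraries, positive in 5 sorts and negative in 3. The 4930555A03Rik fragment was in 15 libraries, positive in 7 sorts and negative in 4, and that near Msi1, which codes for the RNA-binding protein Musashi, was in 16, the most of any promoter-near fragment, positive in 7 sorts and negative in 5. U2, 7SL and Y RNA genes have near-identical copies in the genome. The authors kept only pairs of high mapping quality, to remove reads that map to several places. How well this placed the fragments near Rnu2-10 and Rn7s2 was not tested. The centre lay on the start base itself in 9 fragments, 8 of which were in 1 library each. The first 5 of these by chromosome name and start lay near 1600015H23Rik, Gm36183 (2 fragments), Gm2885 and Abcg2, which codes for an efflux transporter.

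A small number of genes held most of the fragments. The median gene had 6 promoter-near fragments and 93 genes had 1, while 102 genes had 20 or more and together held 83.9% of them. The 15 genes with the most held 1924 fragments, or 29.7%. Gm33989 led with 194 fragments around 3 start sites on chromosome 7. It was followed by Gatad2b, a subunit of the NuRD chromatin remodelling complex, with 181 around chr3:90293181, and by the lncRNA gene 4930412M03Rik with 164. Gm8273 had 142, Gm38882 had 132, Rn7s2, a gene for 7SL RNA of the signal recognition particle, had 129, and Gm12592 had 123. Dhcr7, an enzyme of the last step of cholesterol synthesis, had 122, Rnu2-10 had 117, and Pik3ca, the catalytic alpha subunit of phosphoinositide 3-kinase, had 110. Maml2, a coactivator of Notch, had 106, Dennd2c 104, Nt5dc2 103, Gm9222 102 and Hip1, a clathrin adaptor, 95. Dhcr7, Maml2, Dennd2c, Nt5dc2 and Hip1 had another curated start site as well, 6815, 364502, 24897, 3647 and 55893 bp away. The start site with fragments was that of the RefSeq Select transcript at Maml2, Dennd2c and Nt5dc2 and not at Dhcr7 and Hip1.

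These genes differed in where their fragments lay and what they were made of. All 123 fragments near Gm12592 lay over 1000 bp upstream of the start site, with a median distance of 1196 bp. Those near Maml2 formed a pair of groups, with 57 over 1000 bp upstream and 49 within 1000 bp, in a region that spans the start base. In the other 13 genes the median distance was at most 341 bp. Mean GC content ran from 45.7% near Rnu2-10 to 75.2% near Gm8273, and CpG per 100 bp from 1.74 to 13.9 in the same genes.

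**Figure D3:**
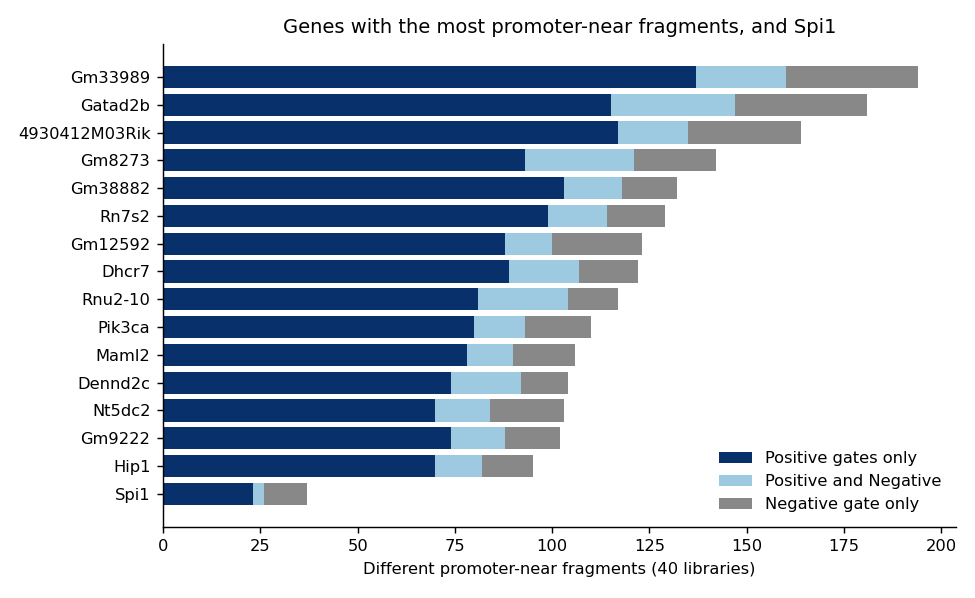
Number of different promoter-near fragments (horizontal axis, all 40 libraries) of the 15 genes with the most and of Spi1, split by gate. Dark blue are fragments of Low, Medium or High libraries alone, light blue those also found in a Negative library, and grey those of Negative libraries alone, and every gene holds all 3 kinds.

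Positive fragments outnumbered negative ones at each of the genes in the plot of gates by gene, as they did over all fragments. Gm33989 had 137 fragments found in positive gates alone, 34 in the Negative gate alone and 23 in both. Gatad2b had 115, 34 and 32, and Pik3ca had 80, 17 and 13. In all, 72.7% of promoter-near fragments were found in positive gates alone, 14.5% in the Negative gate alone and 12.8% in both, and the shares of distal fragments were 73.1%, 14.9% and 12.1%. Of the 335 genes, 304 had a positive fragment and 200 had positive and negative ones. The 31 genes with negative fragments alone had at most 4 fragments each, and the 104 with positive fragments alone had at most 23.

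Genes were found positive at all stages. The number of genes with a positive promoter-near fragment was 161 for ES cells, 175 for HB, 239 for HE1, 184 for HE2 and 161 for HP, and HE1 also had the most fragments. Positive in both replicates of a stage were 31 genes in ES cells, 36 in HB, 60 in HE1, 17 in HE2 and 17 in HP. Of all genes, 102 were positive at every stage, 91 at 1 stage alone, and 6 were positive in all 10 sorts, among them Pik3ca, Gm9222, Gm38882 and Gm34643. At Pik3ca, which is read here from 1 start site on chromosome 3, the ES sorts had 16 and 2 positive and 1 and 0 negative fragments in replicates 1 and 2, the HB sorts 19 and 2 positive and 2 and 1 negative, and the HE1 sorts 24 and 5 positive and 15 and 0 negative. The HE2 sorts had 23 and 1 positive and 0 negative fragments, and the HP sorts 17 and 4 positive and 3 and 9 negative. The HP sort of replicate 2 was the one sort where negative fragments outnumbered positive ones at this gene, and its Negative library, with 14951 fragments, was the largest of that sort.

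Few of the listed genes of blood development had promoter-near fragments, and their share was close to that of all genes. Of 172 genes in 7 lists (blood transcription factors, blood cell surface and signalling genes, endothelial and Notch genes, pluripotency genes, mesoderm and cardiac genes, genes of AP-1, TEAD and Hippo, and genes of BMP and TGF-beta), 2 genes had promoter-near fragments, or 1.16%, while 1.28% of all 26180 curated genes had one. They were Spi1, 1 of 28 blood transcription factors, and Vegfa, 1 of 32 endothelial and Notch genes. The other 5 lists had 0. The lists are short and not complete: Maml2, Rgmb, Elf4 and Ets1 had promoter-near fragments but are in none of them. Vegfa, which codes for the vascular endothelial growth factor, had 1 fragment at 1500 bp from its start site, in an HE1 positive library of replicate 2.

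Spi1 codes for PU.1, an ETS factor needed for myeloid and lymphoid cells, and is known to be controlled by an upstream regulatory element well before its main start site. Its 37 fragments all lay in an intron at chr2:91082606-91083370, 299 to 853 bp downstream of the start of a single curated transcript (NM_001378899.1, chr2:91082405, plus strand). That start lies 14273 bp from the next curated start site of the gene and is not that of the RefSeq Select transcript. The paper reports that its screen recovered the known Spi1 enhancers, an upstream regulatory element among them. Which of these the 37 fragments match was not tested, so their place near this start does not make them promoter sequence. The fragments had a mean GC content of 62.3% but 2.64 CpG per 100 bp, close to the distal mean.
Spi1 fragments were found at HE1, HE2 and HP. In replicate 1 there were 13 positive and 8 negative Spi1 fragments at HE1, 4 and 1 at HE2, and 11 and 3 at HP. In replicate 2 there was 1 negative fragment at HE2 and 1 at HP, and none at HE1. ES and HB had none in any gate of either replicate. At ES 0 of 1064 promoter-near fragments were near Spi1, which allows a share of up to 0.282%, and at HB 0 of 1169, which allows up to 0.257%. The share was 0.715% at HE1, 0.399% at HE2 and 1.24% at HP. The limits cover counting error only, and with replicate 2 nearly empty the difference between stages was not tested. The authors kept only fragments with an open-chromatin (ATAC) peak at the same stage. A locus without such a peak would lack fragments in every gate, and the limits do not cover that. Whether this filter removed Spi1 fragments at ES or HB was not tested.
Among the 102 genes with 20 or more promoter-near fragments, Spi1 was 1 of 8 with none at ES and HB. The matching share of distal regions was not worked out, so the count is not a trait of promoter-near fragments. The filter by stage applies to all 8. Gm45623, another of the 8, had all its 23 fragments in positive gates of the HE1 sort of replicate 2. None of the 102 genes lacked fragments at HE1, HE2 and HP together. Gm13842 had 18 positive and 13 negative fragments at HE1 of replicate 1, 8 and 4 at HE2 and 14 and 5 at HP, with 1 positive fragment in replicate 2, at HP. ES and HB held fewer promoter-near fragments, 1064 and 1169, than HE1 with 2517, HE2 with 1502 and HP with 1209.

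The share of promoter-near fragments in a library differed more between the replicates than between stages or gates. In the 20 libraries of replicate 1 it was 2.24% ± 0.302 (SD, range 1.78 to 2.71%), and in the 20 of replicate 2 it was 0.794% ± 0.220 (range 0.459 to 1.38%), so the replicates did not overlap. Replicate 1 libraries held 4869 to 51146 fragments and 119 to 1004 promoter-near ones. Replicate 2 libraries held 654 to 31915 and 3 to 264. Distal GC content also stood apart between the replicates, as given above, and its part in the difference was not tested. By stage the share was 2.65% and 0.725% at ES in replicates 1 and 2, 2.31% and 0.674% at HB, 2.01% and 0.799% at HE1, 1.92% and 0.896% at HE2, and 2.21% and 0.825% at HP. In replicate 1 the ES sort was highest and the HE2 sort lowest, and in replicate 2 the HE2 sort was highest and the HB sort lowest. The stages did not differ beyond the spread between sorts (SD of the stage means 0.115 percentage points, exact permutation test over 945 arrangements, p = 0.992). These arrangements mix the 2 replicates, whose gap pushes that p towards its upper end. With stages permuted only within a replicate the p was 0.933 (exact permutation test).

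**Figure D4:**
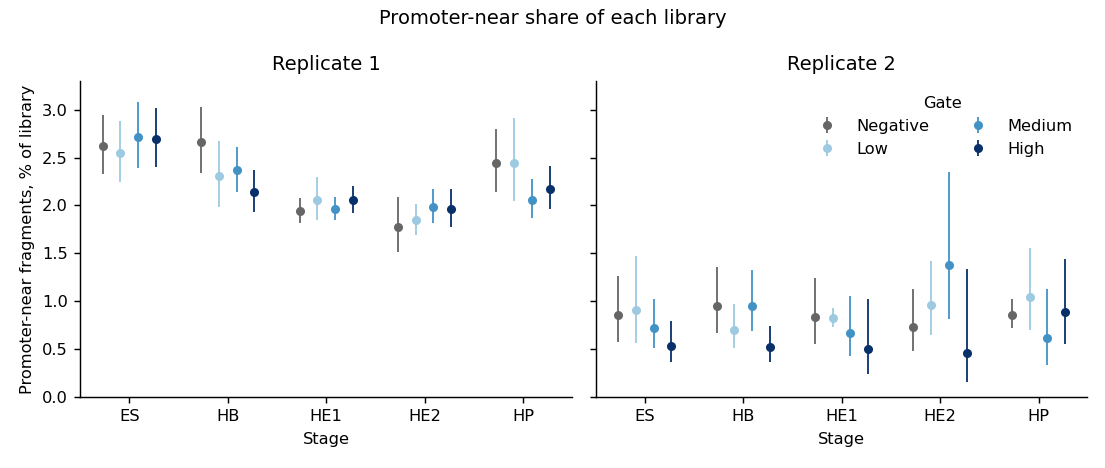
Promoter-near fragments as a percentage of all fragments of each library (vertical axis) by stage and gate, in replicate 1 (left) and replicate 2 (right). Points are the 40 libraries and bars their 95% Wilson intervals, which cover counting error only, and all replicate 1 libraries lie between 1.78 and 2.71% while those of replicate 2 lie between 0.459 and 1.38%.

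The frequency of promoter-near fragments did not differ between the positive gates and the Negative gate beyond the spread between sorts. They made up 1.48% ± 0.779 (SD, n = 10 sorts) of the positive and 1.57% ± 0.809 of the negative fragments, a difference of -0.0819 percentage points ± 0.210 that was above 0 in 4 of 10 sorts (exact permutation test within stages over 7776 arrangements, two-sided, p = 0.805). The difference was -0.0902 in replicate 1 and -0.0737 in replicate 2. Exchange within a stage also mixes the replicates, whose shares stood apart, and this widens the spread in that test. Exchange only within a sort gave p = 0.240 (exact permutation test). By gate, Low minus Negative was -0.0040 (adjusted p = 0.984 over the 3 gates in the exact permutation test), Medium minus Negative -0.0243 (adjusted p = 0.984, exact permutation test) and High minus Negative -0.174 percentage points (adjusted p = 0.984, exact permutation test). High minus Negative was -0.0838 in replicate 1 and -0.264 in replicate 2, where it was below 0 in 4 of 5 sorts. Exchanging gates only within a sort gave High minus Negative p = 0.0605 in the exact permutation test, 0.182 after adjustment. The adjusted p in that test was 0.924 for Low and for Medium. In replicate 2 the High libraries held 3 to 31 promoter-near fragments each, so their counting intervals were wide.

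At ES the share of promoter-near fragments was 2.64% of positive and 2.62% of negative fragments in replicate 1 and 0.687% and 0.853% in replicate 2. At HB it was 2.25% and 2.66%, then 0.639% and 0.949%, lower among positive fragments in both replicates. At HE1 it was 2.01% and 1.94%, then 0.807% and 0.829%. At HE2 it was 1.94% and 1.78%, then 0.951% and 0.733%, higher among positive fragments in both. At HP it was 2.16% and 2.45%, then 0.768% and 0.856%, lower in both.

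Turned round, the percentage of promoter-near fragments that were positive was close to that of distal fragments in each sort. At ES 733 of 990 (74.0%, Wilson interval 71.2 to 76.7%) were positive in replicate 1 and 62 of 80 (77.5%, 67.2 to 85.3%) in replicate 2, against 74.2% and 81.8% of distal fragments. At HB 876 of 1078 (81.3%, 78.8 to 83.5%) and 78 of 95 (82.1%, 73.2 to 88.5%) were positive, against 83.5% and 86.7%. At HE1 the values were 2045 of 2287 (89.4%, 88.1 to 90.6%) and 281 of 288 (97.6%, 95.1 to 98.8%), against 89.6% and 96.6%. At HE2 they were 1328 of 1463 (90.8%, 89.2 to 92.2%) and 33 of 44 (75%, 60.6 to 85.4%), against 89.9% and 70.7%. At HP they were 855 of 1062 (80.5%, 78.0 to 82.8%) and 40 of 158 (25.3%, 19.2 to 32.6%), against 82.5% and 27.2%. The distal value lay inside the interval of the promoter-near one in 9 of 10 sorts, the exception being HB in replicate 1, where it lay just above. The promoter-near value was above the distal one in 3 sorts, HE2 of both replicates and HE1 of replicate 2, and below it in 7. The level itself followed how many fragments each gate of the sort had yielded, and was low at HP in replicate 2, where the Negative library was the largest.

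**Figure D5:**
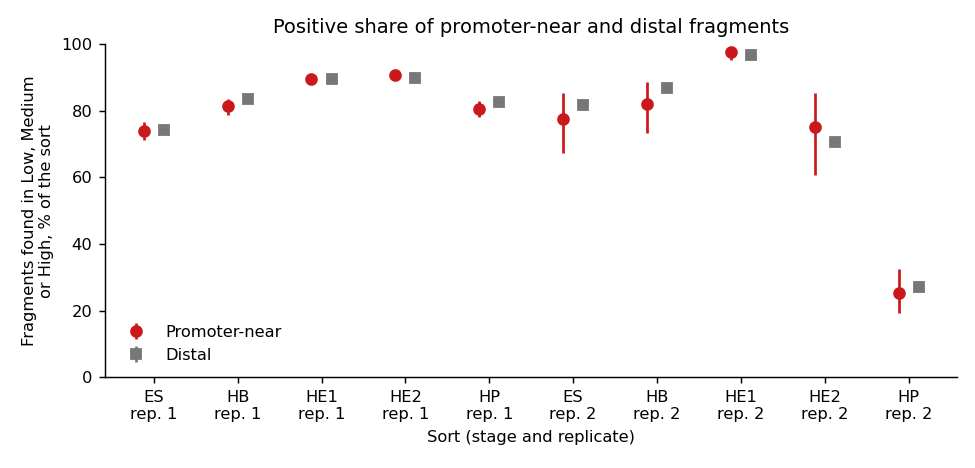
Fragments found in Low, Medium or High as a percentage of all fragments of the sort (vertical axis) in the 10 sorts, for promoter-near (red circles) and distal fragments (grey squares), with 95% Wilson intervals for counting error. The 2 kinds track each other from 25.3 and 27.2% at HP in replicate 2 to 97.6 and 96.6% at HE1 in replicate 2.

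Sharing between gates limits these comparisons. Of the promoter-near fragments in the Negative library of HE1 in replicate 1, 69.9% were also positive, and 551 were common to the Negative and Medium libraries of that sort, 68.5% of the smaller set. The other shares in replicate 1 were 5.17% at ES, 9.82% at HB, 10% at HE2 and 0 of 207 at HP. In replicate 2, whose Negative libraries held 20 to 128 promoter-near fragments, the shares were 69.6% for HE1, 45% for HE2, 41.4% for HB, 25% for ES and 7.81% for HP. With fragments of both sets left out, or without the HE1 sort of replicate 1, the difference between positive and negative shares stayed below the spread between sorts.

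Within the promoter-near set, positive and negative fragments did not differ beyond the spread between sorts in the 3 properties compared. The median distance to the start site was 217.4 bp ± 82.8 (SD, n = 10 sorts) in positive and 189.8 bp ± 44.7 in negative fragments (adjusted p = 0.761, exact permutation test). Mean GC content was 60.1% ± 2.22 and 60.4% ± 2.29 (adjusted p = 0.761, exact permutation test, n = 10). The share near non-coding start sites only was 48.1% ± 4.42 and 46.7% ± 8.29 (adjusted p = 0.761, exact permutation test, n = 10). With exchange only within a sort the adjusted p was 0.752 for each of the 3 (exact permutation test). The difference in the share near non-coding start sites was 1.39 percentage points ± 12, above 0 in 8 of 10 sorts. Its size was lowered by the HE2 sort of replicate 2. There 44 promoter-near fragments gave -28.6, and without that sort the difference was 4.65 (adjusted p = 0.0972, exact permutation test within stages).

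Overlapping fragments of all libraries were merged into regions, and positive and negative fragments were compared per region with the 10 sorts as strata (Cochran-Mantel-Haenszel test, which compares fragments and not cultures, since 1 region gives no replicate values). Of 420 promoter-near regions, 121 had at least 20 library fragments. None of the 121 passed at an adjusted p under 0.05, where 12 of all 5742 regions (0.209%) did. At an unadjusted p under 0.05 there were 6 of 121, or 4.96%, against 3.52% of all regions. Of these 6, 5 had fewer positive fragments than expected, but the directions were not counted over all regions. The ratio of positive fragments observed to those expected had a median of 0.999 over the 121 regions, the same as over all regions tested. It ran from 0.743 to 1.15, and was above 1 in 49.6% of the 121 regions and in 49.5% of all regions tested.

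The regions with the lowest p in either direction show how small the differences were. Near Vamp9 (chr5:99906107-99906853) 72 positive fragments were observed where 63.3 were expected, beside 9 negative ones. Its unadjusted p was 0.0253 in the Cochran-Mantel-Haenszel test and its adjusted p was 1.00. The next with more positive fragments than expected were Gm2885 with 35 against 30.4, Gm35607 with 50 against 44.7, Ahnak2 with 30 against 26.0 and Rgmb, a BMP co-receptor, with 23 against 20.1. On the other side, Tmem144 (chr3:79852663-79853215) had 18 positive fragments where 24.2 were expected, beside 12 negative ones. Its unadjusted p was 0.0071 and its adjusted p, the lowest of a promoter-near region in that test, was 0.931. All its fragments came from replicate 1: 4 positive and 4 negative at HB, 6 and 3 at HE1, 6 and 2 at HE2 and 2 and 3 at HP. Gm30889 had 22 against 28.7, Gm8273 144 against 156.8, Gm13842 41 against 48.7 and Gatad2b 179 against 193.1. Gatad2b had 52 positive and 31 negative fragments in the HE1 sort of replicate 1 and 34 and 7 in the HE2 sort of that replicate.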

How the data were processed

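Per the labels and the methods, the authors used Trim Galore to trim read pairs and bowtie2 to align these to mm10. They kept proper pairs of high mapping quality, to remove reads that map to several places, and reduced repeated spans to 1. They describe the removal of a background library and a filter for open chromatin that required an ATAC peak at the same stage. A split at 1500 bp from start sites was made with Homer. For the reporter libraries, versions and the start sites Homer used are not given in the sources used here. The deposited values are fragment coordinates in bp, a unit classed as other, with no read count. PCR without molecular identifiers makes fragments not fully independent, and intervals (Wilson, 95%) cover counting error only.

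Start sites were those of curated RefSeq transcripts (NM_ and NR_) on GRCm38.p6. Fragments were placed by their centre, and 0 columns of other samples were left unused. Libraries were grouped by their titles. Positive minus negative values were tested by exact permutation within stages, promoter-near minus distal values by exact sign flips over sorts, and regions by the Cochran-Mantel-Haenszel test, with Benjamini-Hochberg adjustment (scipy 1.17.1). Scripts were tested on simulated data. The RefSeq promoter table held 267 of the 335 genes.

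Named genes were the 15 with the most fragments, the genes of the lists, those of the 5 regions with the lowest p in each direction, of the 5 fragments in most sorts and of the 5 nearest to a start site, with ties broken by chromosome name and start. Members, lists and tests were chosen with earlier results of these data known. Alternatives were other distance limits, NM_ sites alone, fragments within 5 bp collapsed, shared fragments left out, other windows and minima, a replicate block, and each sort or replicate left out.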

Additional observations from a re-analysis of the deposited data

Results flagged for a closer look

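Effects of positive against negative fragments had opposite signs at some stages, in both sorts of each. The promoter-near share was higher among positive fragments at HE2 by 0.189 percentage points (mean of 2 sorts) and lower at HB by -0.36 and at HP by -0.19. A test of the difference between stages gave p = 0.019 (exact permutation test over 945 arrangements of sorts), 0.0762 after adjustment over 4 such tests, and 0.05 with stages permuted only within a replicate.

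The median distance to the start site was larger among positive promoter-near fragments at ES by 92.8 bp and at HE1 by 73.8 bp and smaller at HP, by -45.5 bp, with p = 0.347 between stages (exact permutation test, adjusted p = 0.468). Mean GC content of promoter-near fragments was higher among positive fragments at HE2 by 2.71 percentage points and lower at ES, by -1.49, and at HB, by -1.51, with p = 0.351 (exact permutation test, adjusted p = 0.468). In replicate 1 the distance differences at ES, HE1 and HP were 3, 15.5 and -38 bp, and in replicate 2 they were 182.5, 132 and -53 bp. The Negative libraries of ES and HE1 in replicate 2 held 24 and 23 promoter-near fragments. In replicate 1 the GC differences at ES, HB and HE2 were -0.0217, -0.0114 and 0.799, and in replicate 2 they were -2.95, -3.00 and 4.62. Groups of 2 libraries allow no check for outlying samples.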

How the results depend on the processing

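Promoter-near fragments had more GC, more CpG, greater length and more finds in another sort than distal ones in the same direction under all 16 alternatives, with p = 0.0625 in the exact permutation test when either replicate was left out, the smallest that 5 sorts allow. Leaving out replicates or sorts gave 6.22 to 8.07 percentage points of GC, 3.25 to 3.47 CpG per 100 bp, 18.3 to 26.0 bp and 3.08 to 5.80 percentage points found again. The motifs past the threshold numbered 9 with NM_ start sites alone, 6 in the central 100 bp, 9 in whole fragments and 0 to 3 when replicates or sorts were left out. The share in positive minus negative fragments stayed below 0 under 18 alternatives, from -0.102 to -0.0571, with no p under 0.240, and with the replicate block, where gates are exchanged within a sort, its p was 0.24 in the exact permutation test. Low minus Negative turned to 0.0288 at a limit of 1000 bp, 0.0243 at 500 bp, 0.0295 with fragments collapsed and 0.0113 without shared fragments, and ran from -0.0499 to 0.0419 with replicates or sorts left out, where Medium minus Negative ran from -0.0713 to 0.0226. The share near non-coding start sites turned to -0.308 at 1000 bp, -0.135 with fragments collapsed and -0.579 without shared fragments, and ran from -1.87 to 4.65. The distance turned to -21.9 bp with NM_ sites and -10.6 bp without shared fragments (range -1.5 to 56.6 bp). The GC difference within the set turned to 0.275 without shared fragments (range -0.898 to 0.235). None of these reversals passed the threshold after adjustment, and their cause was not tested. Promoter-near regions past the test per region numbered 0 under all 16 alternatives. Replicate 2, with 538 promoter-near fragments, limits every comparison between gates.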
